A study of Homo sapiens with 24 samples.

Results

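RNA levels of 49 human genes that sense or repair DNA double-strand breaks and DNA interstrand crosslinks were followed in 4 cancer cell lines exposed to cold atmospheric plasma. The genes were taken as a list of symbols, chosen with earlier results of these data known. Each symbol matched 1 of the 61533 genes in the count tables. They comprise 5 damage kinases, 6 genes of chromatin signalling around a break, 7 genes of end processing and unwinding, 13 genes of homologous recombination, 7 genes of end joining and 11 genes of the Fanconi pathway. All 49 genes passed the filter on low counts in each of the 4 lines.

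Cal27, A375, Fadu and Hth83 cells, all labelled wild type, were exposed for 60 s to Piezo-CAP, a plasma source driven by a piezoelectric element (the CAP group), or received no exposure (the Control group). RNA was taken at 24 h, and each line had 3 CAP and 3 Control libraries, 24 libraries in all. Cal27, A375 and Hth83 grew in DMEM and Fadu in MEM, so the medium goes with the line. Whether the 3 libraries of a group are separate cultures is not stated by the labels, and p-values measure the spread among libraries, which may be technical.

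A double-strand break is bound either by the Ku heterodimer, which leads to end joining, or by the MRE11-RAD50-NBN complex, whose cutting of the ends opens the way to homologous recombination. The kinases ATM, ATR and DNA-PKcs (the product of PRKDC) phosphorylate histone H2AX and many repair proteins, and ATR and its effector CHEK1 also act at stalled replication forks. Fanconi proteins unhook crosslinks during replication through the ubiquitination of FANCD2 and FANCI, and hand the resulting break to the recombination proteins. Many of these genes are known to be expressed most strongly in cells that are replicating their DNA.

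Total counts per library ran from 27882581 to 49514338. All 4 lines carry the same cell type label, head and neck cancer. The melanoma line A375 averaged 787 ± 18.2 TPM of the melanocyte lineage factor SOX10 in CAP libraries and 956 ± 14.5 TPM in Control libraries (SD, n = 3 each), and 3 of 9 squamous markers reached a mean of 1 TPM there. Of the 8 melanocyte markers 3 reached that level in A375 (SOX10, MITF and S100B), in CAP and in Control libraries. In both groups of Fadu 3 others did (PMEL, MLANA and TYRP1). In Hth83, known as a thyroid cancer line, 8 of 9 squamous markers reached that level in CAP libraries and 9 of 9 in Control libraries, and of the 7 thyroid markers only PAX8 did. At most 2 of 7 leukocyte markers and 3 of 8 fibroblast and endothelial markers reached it in any group. In bulk RNA, fewer cells of a type (such as cells in a phase of the cell cycle) and less RNA per cell cannot be told apart.

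Levels are compared between genes as TPM recomputed per GENCODE 29 exon length, because the deposited TPM follow the whole genomic span of a gene. Among the 49 genes XRCC6, which encodes a Ku subunit, had the highest level in every untreated line, with 892 ± 13.6 TPM in Cal27, 580 ± 10.4 TPM in A375, 2040 ± 1.78 TPM in Fadu and 681 ± 19.7 TPM in Hth83 (SD, n = 3 each). XRCC5, the other Ku subunit, followed in Cal27 at 321 ± 8.44 TPM and in A375 at 431 ± 14.6 TPM, where PRKDC stood at 410 ± 5.91 TPM. In Fadu PRKDC stood at 431 ± 8.26 TPM and XRCC5 at 416 ± 2.06 TPM, both below H2AX at 621 ± 1.39 TPM. In Hth83 PRKDC had 365 ± 10.9 TPM, XRCC5 225 ± 9.07 TPM and H2AX 209 ± 12.2 TPM. These 4 genes, 3 of which encode the DNA-PK complex, held the 4 highest levels of the 49 in every untreated line.

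Among the lowest levels were those of RAD51B, a gene of homologous recombination, with 2.99 to 5.84 TPM over the 4 untreated lines, and of RAD50, with 2.21 to 4.71 TPM. RAD50 stood far below its partners MRE11 (39.4 to 52.0 TPM) and NBN (66.7 to 147 TPM). Of its exon bases 79.7% lie also in exons of a second annotated gene on the same strand, which had 0 counts in all libraries, so its level is uncertain. The median over the 49 genes was 19 TPM in untreated Cal27, 29 TPM in A375, 51 TPM in Fadu and 34 TPM in Hth83. Each line's values come from its own table, and no test was made of levels between lines.

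In Cal27, A375 and Hth83 more repair genes rose than fell after CAP, whereas in Fadu more fell. The Fadu balance turned with library size alone as the scaling (18 rises, 10 falls), where 6491 of all 19152 genes rose and 4005 fell. It also turned with the span length trend removed (16 and 13, beside 4813 and 5098 of all genes). With the exon length and GC trend removed it was 17 and 9, beside 4988 and 4836 of all genes. In Cal27 26 genes rose, 7 fell and 16 did not pass an adjusted p of 0.05, where 21.9% of all 17371 genes tested were called higher and 23.2% lower (45.1% in all). In A375 24 rose, 4 fell and 21 did not pass, with a background of 25.7% higher and 24.8% lower (50.5% in all). The 4 falls in A375 became 2 without Control library 2 or 3 and 1 without CAP library 3. With library size alone 21 repair genes rose and 10 fell there, beside 3946 and 5961 of all 19604 genes. In Hth83 30 rose, 6 fell and 13 did not pass, with 25.9% higher and 24.2% lower among all genes (50.1% in all). In Fadu 13 rose, 20 fell and 16 did not pass, where the background was 26.3% higher and 27% lower (53.3% in all).

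As shares of the 49 genes, the called rises came to 53.1% in Cal27, 49% in A375, 26.5% in Fadu and 61.2% in Hth83, and the called falls to 14.3%, 8.16%, 40.8% and 12.2% in the same order. The share of rises in Fadu was close to that of all genes. The median log2 fold change (CAP over Control) of the 49 genes was 0.20 in Cal27, 0.14 in A375, −0.03 in Fadu and 0.27 in Hth83, beside medians over all genes of 0.00, −0.02, 0.01 and 0.00. CAP and Control libraries did not overlap for 38, 36, 33 and 38 of the 49 genes in Cal27, A375, Fadu and Hth83, against 52.7%, 57.9%, 58.6% and 57.2% of all genes.

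The medians of single libraries had the sign of the fitted ones. Relative to the mean of the Control libraries, the median over the 49 genes was 0.15, 0.20 and 0.20 (log2) in the CAP libraries of Cal27, 0.17, 0.10 and 0.15 in A375, and 0.27, 0.28 and 0.29 in Hth83. In Fadu it was −0.04, −0.01 and −0.07. Most changes were small, since the median size of a change, whatever its sign, was 0.23 in Cal27, 0.20 in A375, 0.18 in Fadu and 0.35 in Hth83.

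**Figure D1:**
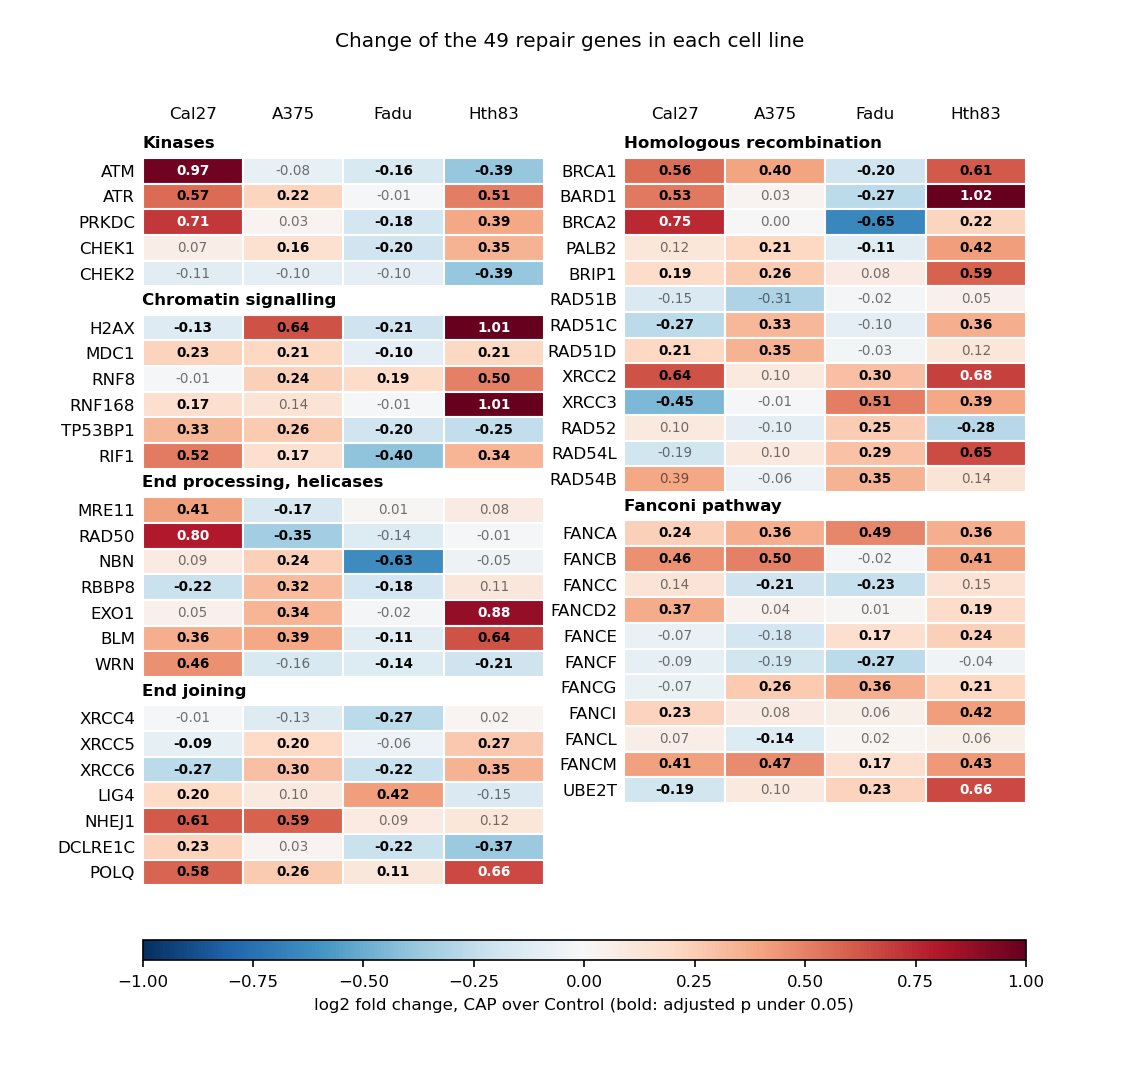
Heat map of the log2 fold change (CAP over Control) of each of the 49 repair genes in the 4 cell lines, grouped by role, with the fitted value printed in each cell and bold print where the adjusted p is under 0.05 (colours end at −1 and 1). Red cells fill most of the Hth83 columns, where 30 genes rose, and blue cells are most frequent in the Fadu columns, where 20 fell.

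The 3 kinases that start damage signalling moved differently in the 4 lines. ATM, which responds to double-strand breaks, rose in Cal27, fell in Hth83 and Fadu and was not called in A375. ATR, which responds to single-stranded DNA at stalled forks and resected ends, rose in Cal27, A375 and Hth83. PRKDC, whose product works with Ku in end joining, rose in Cal27 and Hth83 and fell in Fadu. CHEK1, the effector kinase of ATR, rose in A375 and Hth83 and fell in Fadu, and CHEK2, the effector kinase of ATM, fell in Hth83.

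ATM had 70.1, 69.4 and 69.8 CPM (the counts-per-million unit, scaled by TMM) in Cal27 CAP libraries, against 33.3, 35.6 and 37.9 CPM in Control libraries. This was the largest rise of any repair gene in Cal27, a log2 fold change of 0.97 (SE 0.057, adjusted p = 3.36e-15), with no overlap between the groups. In Hth83 ATM had 112, 110 and 110 CPM after CAP and 137, 143 and 153 CPM in Control cells. All CAP values there lay below all Control values, and ATM fell by 0.39 on the log2 scale (SE 0.049, adjusted p = 9.95e-08).

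In Fadu ATM had 146, 147 and 144 CPM in CAP libraries and 163, 157 and 169 CPM in Control libraries. The groups did not overlap and the log2 fold change was −0.16 (SE 0.038, adjusted p = 0.000144), but with a trend of the changes with exon length and GC content removed it was 0.07, and over all alternatives its adjusted p ran from 8.26e-05 to 0.351. In A375 ATM had 161, 164 and 163 CPM after CAP and 173, 173 and 169 CPM in Control cells, a log2 fold change of −0.08 (SE 0.036) that was not called (adjusted p = 0.0756), although the groups did not overlap.

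ATR had 74.0, 79.0 and 75.9 CPM in Cal27 CAP libraries and 51.9, 49.4 and 53.4 CPM in Control libraries, and rose by a log2 fold change of 0.57 (SE 0.052, adjusted p = 1.3e-10). In Hth83 it had 138, 152 and 152 CPM after CAP and 102, 110 and 97.2 CPM in Control cells, a rise of 0.51 (SE 0.053, adjusted p = 1.97e-09). The rise in A375 was smaller, at 0.22 (SE 0.042, adjusted p = 4.71e-05), with 109, 106 and 110 CPM in CAP libraries and 91.5, 95.1 and 93.2 CPM in Control libraries. In each of these 3 lines every CAP library exceeded every Control library. Fadu libraries overlapped, with 173, 177 and 164 CPM after CAP and 169, 169 and 180 CPM in Control cells and a log2 fold change of −0.01 (SE 0.037, adjusted p = 0.866). With library size alone as the scaling, the Fadu value of ATR was 0.10 and passed the threshold, and its adjusted p over all alternatives ran from 2.95e-05 to 1.

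PRKDC had 815, 786 and 779 CPM in Cal27 CAP libraries and 466, 457 and 527 CPM in Control libraries, a rise of 0.71 (SE 0.042, adjusted p = 5.63e-13). In Hth83 it had 1630, 1670 and 1670 CPM after CAP and 1270, 1290 and 1240 CPM in Control cells, a rise of 0.39 (SE 0.039, adjusted p = 1.23e-09). CAP libraries lay wholly above Control libraries in both lines. The order was opposite in Fadu, where 1340, 1370 and 1310 CPM in CAP libraries stood against 1500, 1510 and 1540 CPM in Control libraries, a fall of 0.18 (SE 0.027, adjusted p = 1.13e-08) that was −0.04 with the length trend removed (adjusted p = 0.209, range over the alternatives 7.27e-12 to 0.209). In A375 the values were 1370, 1380 and 1390 CPM after CAP and 1340, 1370 and 1350 CPM in Control cells, and the log2 fold change of 0.03 (SE 0.030) was not called (adjusted p = 0.437).

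**Figure D2:**
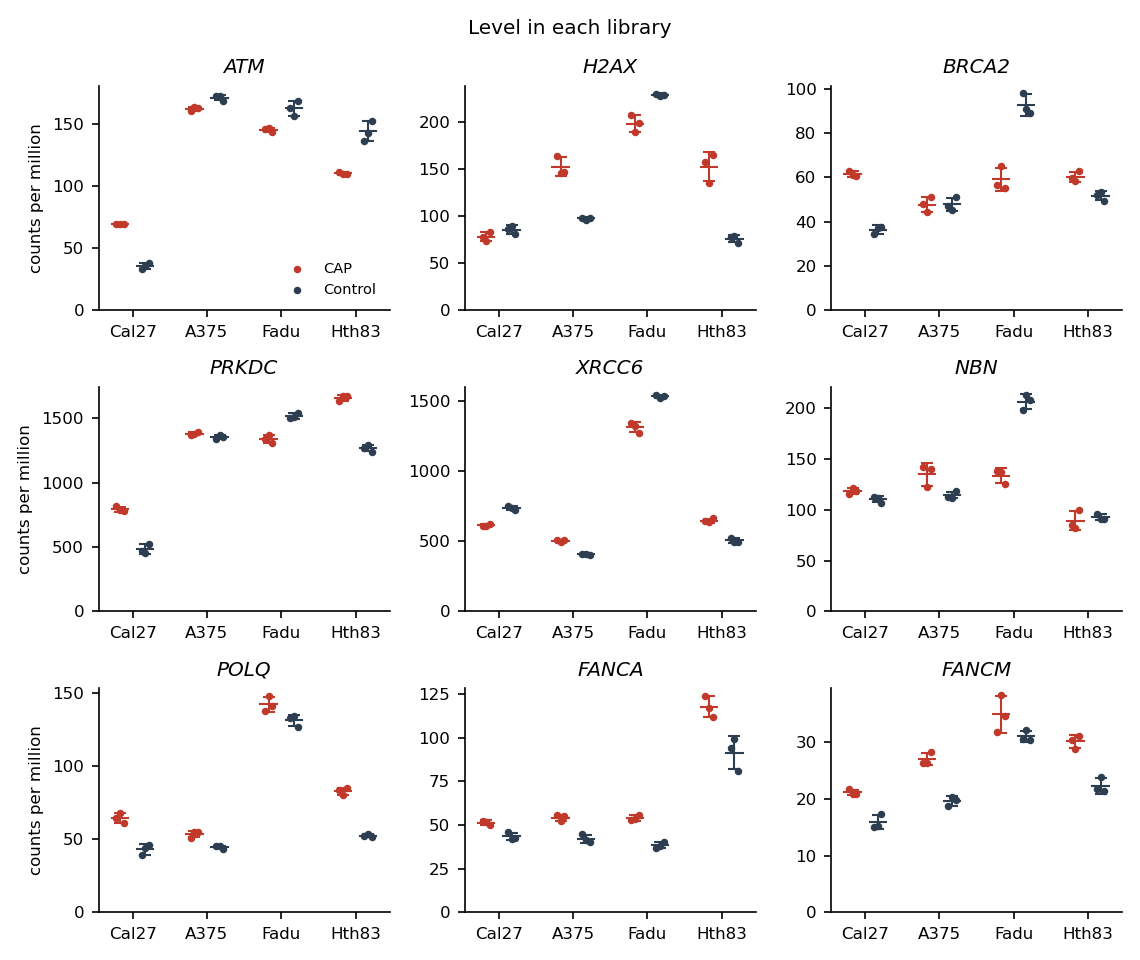
Level in CPM (TMM-scaled, linear axis from 0) of 9 repair genes in every library of the 4 cell lines, with CAP (red) left of Control (dark); horizontal marks are means and bars are SD of 3 libraries. ATM stands at about 70 CPM in Cal27 CAP libraries and at 33.3 to 37.9 CPM in Control libraries, with the opposite order in Hth83, and BRCA2 and NBN are lower after CAP in Fadu.

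CHEK1 rose in Hth83 (log2 fold change 0.35, SE 0.054, adjusted p = 3.04e-06) and in A375 (0.16, SE 0.048, adjusted p = 0.00609), fell in Fadu (−0.20, SE 0.053, adjusted p = 0.000974) and was not called in Cal27 (0.07). The Fadu call was lost with library size alone (−0.09), with the exon length and GC trend removed (−0.07) and on log2(TPM + 1) (−0.17), and the A375 call with library size alone (0.09), in the joint fit (0.13) and on log2(TPM + 1) (0.07), with adjusted p of up to 0.286 in Fadu and 0.288 in A375. CHEK2 shared with ATM the largest fall in Hth83, with 15.6, 16.2 and 15.6 CPM in CAP libraries and 21.4, 23.1 and 17.7 CPM in Control libraries. The groups did not overlap and the log2 fold change was −0.39 (SE 0.10, adjusted p = 0.00089). On log2(TPM + 1) the call was lost (−0.26). In the other lines CHEK2 was between −0.11 and −0.10 and was not called. Further calls of the kinases that did not hold were ATM in Fadu with library size alone (−0.06), the length trend removed (−0.04) or log2(TPM + 1) (−0.13), PRKDC in Fadu with the exon length and GC trend removed (−0.04), and ATR in A375 on log2(TPM + 1) (0.12).

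H2AX, the histone variant whose phosphorylation marks the chromatin around a break, had the largest rise of A375 and, with RNF168, the largest of Hth83 after BARD1. Its RNA was 164, 146 and 147 CPM in A375 CAP libraries and 98.5, 95.8 and 98.3 CPM in Control libraries. In Hth83 it was 158, 135 and 165 CPM after CAP and 77.4, 78.9 and 71.6 CPM in Control cells. CAP libraries exceeded Control libraries throughout, with log2 fold changes of 0.64 in A375 (SE 0.044, adjusted p = 3.15e-13) and 1.01 in Hth83 (SE 0.062, adjusted p = 7.28e-13), a 2.01-fold level in Hth83.

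The other lines gave the opposite sign. In Fadu H2AX had 207, 189 and 199 CPM in CAP libraries and 230, 227 and 229 CPM in Control libraries, without overlap, and fell by 0.21 on the log2 scale (SE 0.036, adjusted p = 3.18e-07). In Cal27 it had 77.5, 73.7 and 83.4 CPM after CAP and 86.1, 89.9 and 81.1 CPM in Control cells, groups that overlapped, with a log2 fold change of −0.13 (SE 0.052, adjusted p = 0.0361). The Cal27 call did not hold when Control library 1 or 2 or CAP library 1 or 2 was left out (−0.13, −0.10, −0.13 and −0.09), nor by DESeq2. On log2(TPM + 1) the Cal27 value was 0.10 and not called. With the exon length and GC trend removed, H2AX was called higher in Cal27 (0.16, adjusted p = 0.0155 by edgeR). The adjusted p of H2AX in Cal27 ran from 0.0101 to 0.45 over the alternatives.

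Of the proteins that build on this mark, MDC1 binds phosphorylated H2AX, RNF8 and RNF168 are the ubiquitin ligases that follow, and TP53BP1 and RIF1 hold back resection. In Cal27 MDC1, RNF168, TP53BP1 and RIF1 rose, and in A375 MDC1, RNF8, TP53BP1 and RIF1 rose. In Hth83 MDC1, RNF8, RNF168 and RIF1 rose while TP53BP1 fell. In Fadu RNF8 rose (0.19), and MDC1, TP53BP1 and RIF1 fell. The Fadu call of RNF8 was lost without Control library 2 (0.18) or CAP library 1 (0.17), with adjusted p from 0.00042 to 0.0759 over the alternatives.

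RNF168 tied with H2AX in Hth83, where it had 57.2, 61.8 and 55.6 CPM in CAP libraries and 27.9, 30.0 and 29.1 CPM in Control libraries. The groups lay far apart, with a log2 fold change of 1.01 (SE 0.066, adjusted p = 1.06e-13). Its rise in Cal27 was 0.17 (SE 0.067, adjusted p = 0.0386). This call was lost without Control library 2 (0.16) or 3 (0.12) and without CAP library 1 (0.14), 2 (0.18) or 3 (0.18), and its adjusted p ran from 0.00231 to 0.404 over the alternatives. In A375 and Fadu its log2 fold change was 0.14 and −0.01 and was not called.

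Further calls here depended on the processing. RNF8 in A375 was 0.17 with library size alone and 0.13 on log2(TPM + 1), RNF168 in Cal27 0.13 with the length trend and 0.07 with the exon length and GC trend removed, and RIF1 in A375 0.07 and MDC1 in Fadu −0.08 on log2(TPM + 1), none of them called.

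RIF1 had the largest fall among the chromatin genes, in Fadu, with a log2 fold change of −0.40 (SE 0.035, adjusted p = 4.78e-18), while it rose by 0.52 in Cal27, 0.17 in A375 and 0.34 in Hth83. MDC1 rose by 0.23, 0.21 and 0.21 in Cal27, A375 and Hth83. In Fadu its fall of 0.10 was lost without Control library 2 (−0.09), Control library 3 (−0.08) or CAP library 3 (−0.08), and the value was 0.01 under library size alone, with adjusted p between 0.00189 and 0.911 over the alternatives. TP53BP1 was 0.33 in Cal27, 0.26 in A375, −0.20 in Fadu and −0.25 in Hth83, all called. With the exon length and GC trend removed the Cal27 value was 0.10 and the Fadu value −0.08, and on log2(TPM + 1) A375 had 0.15 and Hth83 −0.16, none of them called. Of its exon bases 28.7% are shared with the opposite-strand gene TUBGCP4, and whether the counting used strand is not stated by any source at hand.

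Of the 7 genes that process ends and unwind DNA, 0 rose and 4 fell in Fadu, 57.1% lower against 27% of all genes. In Cal27 4 rose and 1 fell (57.1% and 14.3%, against 21.9% and 23.2%), in A375 4 rose and 2 fell (57.1% and 28.6%, against 25.7% and 24.8%), and in Hth83 2 rose and 1 fell (28.6% and 14.3%), where 25.9% of all genes rose. The MRE11-RAD50-NBN complex, which tethers and trims broken ends, did not move as a unit. MRE11 rose in Cal27 (0.41, SE 0.049, adjusted p = 1.97e-08), fell in A375 (−0.17, SE 0.048, adjusted p = 0.00323) and was not called in Fadu (0.01) or Hth83 (0.08).

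NBN gave the second largest fall in Fadu. It had 138, 137 and 125 CPM in Fadu CAP libraries and 198, 213 and 208 CPM in Control libraries. The groups were well separated and the log2 fold change was −0.63 (SE 0.038, adjusted p = 1.17e-26). In A375 NBN rose by 0.24 (SE 0.047, adjusted p = 8.23e-05), and it was not called in Cal27 (0.09) or Hth83 (−0.05).

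RAD50 was counted at low levels, as described above, and was called in 2 lines. In Cal27 it had 10.5, 9.13 and 8.79 CPM after CAP and 4.69, 5.30 and 6.29 CPM in Control cells, a rise of 0.80 without overlap (SE 0.13, adjusted p = 8.44e-06). In A375 it had 5.93, 6.38 and 5.34 CPM in CAP libraries and 7.26, 7.81 and 7.51 CPM in Control libraries, the largest fall of that line at −0.35 (SE 0.12, adjusted p = 0.017). The A375 groups did not overlap, but the call was lost without Control library 2 (−0.33) or CAP library 3 (−0.28) and with the length trend removed (−0.26), and the adjusted p over the alternatives ran from 0.00521 to 0.252.

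RBBP8, which encodes the resection factor CtIP, rose in A375 (0.32) and fell in Cal27 (−0.22) and Fadu (−0.18), and the Cal27 value was 0.01 on log2(TPM + 1). Its Fadu call was lost with library size alone (−0.07), with the length trend (−0.02) or the exon length and GC trend removed (−0.06) and on log2(TPM + 1) (−0.13), over adjusted p from 8.01e-05 to 0.699. EXO1, the exonuclease of long-range resection, rose in A375 (0.34, SE 0.047) and Hth83 (0.88, SE 0.064) and was not called in Cal27 (0.05) or Fadu (−0.02). BLM, a helicase that acts with it, rose by 0.36 in Cal27, 0.39 in A375 and 0.64 in Hth83. Its fall in Fadu was −0.11 (adjusted p = 0.013), lost without Control library 1 (−0.09) or CAP library 1 (−0.10), and 0.02 with the exon length and GC trend removed, over a range of adjusted p from 0.00952 to 0.862. WRN, the Werner helicase, rose in Cal27 (0.46) and fell in Hth83 (−0.21). Its Fadu fall of 0.14 was lost without Control library 2 (−0.10) or CAP library 3 (−0.10), with adjusted p between 0.011 and 0.967 over the alternatives, and its value there was 0.00 with the exon length and GC trend removed. Further calls of this group were lost with the length trend removed for MRE11 in A375 (−0.09), BLM in Fadu (−0.03) and WRN in Fadu (−0.02), with library size alone for BLM (−0.01) and WRN (−0.03) in Fadu, and on log2(TPM + 1) for NBN (0.14), RBBP8 (0.18) and RAD50 (−0.23) in A375 and WRN in Hth83 (−0.12).

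Of the 13 homologous recombination genes 9 rose and 1 fell in Hth83, 69.2% and 7.69% of them against 25.9% and 24.2% of all genes. In Cal27 6 rose and 2 fell (46.2% and 15.4%, against 21.9% and 23.2%), and in A375 5 rose and 0 fell (38.5% and 0%, against 25.7% and 24.8%). In Fadu 5 rose and 4 fell, 38.5% and 30.8% against 26.3% and 27%. The 4 that fell in Fadu were BRCA1, BARD1, BRCA2 and PALB2, whose proteins bind one another and act together in recombination. Over the alternatives the Fadu call of BRCA2 held (adjusted p of up to 0.0084). Those of BRCA1, BARD1 and PALB2 did not hold in all of them (up to 0.186, 0.0815 and 0.885). The 5 that rose there were XRCC2 and XRCC3, whose products take part in strand exchange, the annealing factor RAD52 and the RAD54 family members RAD54L and RAD54B.

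BRCA1, a tumour suppressor that promotes resection, had 104, 104 and 103 CPM in Cal27 CAP libraries and 73.4, 66.4 and 71.2 CPM in Control libraries. In A375 it had 113, 109 and 116 CPM after CAP and 87.7, 82.3 and 85.2 CPM in Control cells, and in Hth83 136, 134 and 150 CPM after CAP and 93.7, 96.1 and 83.9 CPM in Control cells. CAP exceeded Control in every library of these 3 lines, with log2 fold changes of 0.56 (SE 0.048, adjusted p = 2.11e-11) in Cal27, 0.40 (SE 0.043, adjusted p = 2.99e-09) in A375 and 0.61 (SE 0.056, adjusted p = 1.79e-10) in Hth83. Fadu had 161, 164 and 157 CPM in CAP libraries and 183, 183 and 188 CPM in Control libraries, and BRCA1 fell there by 0.20 (SE 0.037, adjusted p = 1.64e-06). With the exon length and GC trend removed the Fadu value was −0.06 (adjusted p = 0.186, range over the alternatives 1.21e-07 to 0.186).

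BARD1, the obligate partner of BRCA1, had the largest rise of any repair gene in Hth83. It had 18.6, 21.0 and 21.3 CPM after CAP and 9.44, 11.0 and 9.58 CPM in Control cells, a 2.02-fold level without overlap (log2 fold change 1.02, SE 0.10, adjusted p = 6.13e-10). It also rose in Cal27 (0.53, SE 0.069), fell in Fadu (−0.27, SE 0.054) and was not called in A375 (0.03). The Fadu call was lost with the exon length and GC trend removed (−0.11, adjusted p = 0.0815, range over the alternatives 2.76e-06 to 0.0815).

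BRCA2, a tumour suppressor required for homologous recombination, ran in opposite directions in Cal27 and Fadu. In Cal27 it had 62.9, 61.3 and 60.5 CPM in CAP libraries and 34.3, 37.3 and 37.8 CPM in Control libraries, a rise of 0.75 (SE 0.057, adjusted p = 1.59e-12). In Fadu it had 56.8, 65.1 and 55.4 CPM after CAP and 98.1, 90.9 and 89.1 CPM in Control cells, the largest fall of that line at −0.65 (SE 0.050, adjusted p = 1.67e-18). Neither pair of groups overlapped. Hth83 had 59.6, 58.2 and 62.8 CPM in CAP libraries and 52.3, 53.5 and 49.5 CPM in Control libraries, a rise of 0.22 without overlap (SE 0.060, adjusted p = 0.00299). A375 libraries overlapped, at 48.1, 44.3 and 51.0 CPM after CAP and 47.2, 45.4 and 51.2 CPM in Control cells, with a log2 fold change of 0.00 (SE 0.059, adjusted p = 0.976).

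PALB2, the bridge between BRCA1 and BRCA2, rose in A375 (0.21) and Hth83 (0.42). Its log2 fold change in Fadu was −0.11, a call lost without Control library 2 (−0.07) or CAP library 1 (−0.10). It was also lost in the joint fit (−0.10) and with the exon length and GC trend removed (−0.04), with adjusted p from 0.0256 to 0.885 over the alternatives. BRIP1, a helicase partner of BRCA1, rose in Cal27 (0.19), A375 (0.26) and Hth83 (0.59), and the Cal27 call was lost without Control library 1 (0.19), Control library 2 (0.19) or CAP library 2 (0.15), with −0.03 once the exon length and GC trend was removed and adjusted p from 0.00122 to 0.777.

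XRCC3 stood out with opposite changes in Fadu and Cal27. It had 59.1, 53.6 and 56.4 CPM in Fadu CAP libraries and 41.1, 39.6 and 37.8 CPM in Control libraries, the largest rise of that line (log2 fold change 0.51, SE 0.057, adjusted p = 3.22e-13). In Cal27 it had 43.5, 42.0 and 41.1 CPM after CAP and 62.1, 59.3 and 51.4 CPM in Control cells, the largest fall of that line (−0.45, SE 0.062, adjusted p = 3.89e-07). The groups did not overlap in either line. XRCC3 also rose in Hth83 (0.39) and was not called in A375 (−0.01). Its exon bases lie to 76.7% in exons of the opposite-strand gene KLC1, so reads of both genes cannot be told apart if the counting did not use strand, which is not given.

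Of the related recombination genes, XRCC2 rose in Cal27 (0.64), Fadu (0.30) and Hth83 (0.68) and was not called in A375 (0.10). RAD51C rose in A375 (0.33) and Hth83 (0.36), was not called in Fadu (−0.10) and fell in Cal27, where it had 42.3, 38.2 and 41.3 CPM after CAP and 50.5, 48.4 and 47.8 CPM in Control cells. The Cal27 groups did not overlap (−0.27, SE 0.059, adjusted p = 0.000352), but on log2(TPM + 1) the value was −0.03 and not called (adjusted p = 0.636, range over the alternatives 1.72e-06 to 0.681). RAD51D rose in A375 (0.35) and in Cal27 (0.21), where the call was lost without Control library 2 (0.17), Control library 3 (0.21), CAP library 2 (0.16) or CAP library 3 (0.22), with adjusted p from 0.00404 to 0.895 over the alternatives. RAD51B was the 1 gene of the 49 called in no line.

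RAD52 rose in Fadu (0.25, SE 0.054) and fell in Hth83 (−0.28, SE 0.082). RAD54L, a DNA-dependent motor protein of recombination, rose in Fadu (0.29) and in Hth83 (0.65) and was not called in Cal27 (−0.19) or A375 (0.10). RAD54B rose in Fadu (0.35) and had a value of 0.39 in Cal27, without overlap but not called (adjusted p = 0.0679), and 59.1% of its exon bases are shared with FSBP on the same strand, and 25.1% of those of RAD54L with the opposite-strand gene LRRC41. On log2(TPM + 1) the calls of RAD54B in Fadu (0.21), RAD52 in Hth83 (−0.19), XRCC3 in Cal27 (−0.20), BRIP1 in A375 (0.12) and PALB2 in A375 (0.11) and Fadu (−0.09) were lost. With library size alone PALB2 lost its call in A375 (0.14) and Fadu (−0.01), and RAD51D was 0.02 in Cal27 with the exon length and GC trend removed.

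In end joining, the Ku genes XRCC5 and XRCC6 rose together in A375 and Hth83 and fell in Cal27, and XRCC6 fell in Fadu, where XRCC5 was not called. XRCC6 had 606, 611 and 620 CPM in Cal27 CAP libraries and 749, 737 and 722 CPM in Control libraries, a fall of 0.27 (SE 0.032, adjusted p = 2.48e-08) that was −0.03 and not called on log2(TPM + 1) (adjusted p = 0.391, range over the alternatives 2.28e-15 to 0.514). In Fadu it had 1340, 1320 and 1270 CPM after CAP and 1540, 1520 and 1530 CPM in Control cells, a fall of 0.22 (SE 0.027, adjusted p = 8.31e-12). CAP libraries lay below Control libraries in both lines.

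XRCC6 rose in the remaining lines. A375 had 505, 494 and 510 CPM in CAP libraries and 410, 412 and 402 CPM in Control libraries (log2 fold change 0.30, SE 0.033, adjusted p = 4.62e-09). Hth83 had 640, 633 and 662 CPM after CAP and 524, 497 and 493 CPM in Control cells (0.35, SE 0.042, adjusted p = 2.83e-08). No CAP library of these lines overlapped the Control range. Reads assigned to 5 annotated XRCC6 pseudogenes came to 0.0736% of those of XRCC6 over all libraries.

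XRCC5 rose by 0.20 in A375 and 0.27 in Hth83 and was −0.06 in Fadu, not called. In Cal27 it fell by 0.09 (SE 0.034, adjusted p = 0.0227). That call was lost without Control library 1 (−0.07), CAP library 2 (−0.09) or CAP library 3 (−0.09), and adjusted p ran from 6.24e-07 to 0.8 over the alternatives. By limma on log2(TPM + 1) XRCC5 was called higher in Cal27 (0.14, adjusted p = 0.0158).

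The ligation factors showed little in common. LIG4, the ligase of end joining, rose in Fadu (0.42, SE 0.068, adjusted p = 1.15e-07) and in Cal27 (0.20), where its call was lost without Control library 1 (0.20), Control library 2 (0.18), CAP library 2 (0.20) or CAP library 3 (0.17) and adjusted p ran from 0.00115 to 0.461. XRCC4, its partner, fell in Fadu (−0.27) and was not called elsewhere. NHEJ1, which encodes the bridging factor XLF, had 6.35, 6.85 and 7.86 CPM in A375 CAP libraries and 4.47, 5.19 and 4.40 CPM in Control libraries, the second largest rise of A375 (0.59, SE 0.13, adjusted p = 0.000474), without overlap. It also rose in Cal27 (0.61, SE 0.17), and 65.4% of its exon bases are shared with a same-strand gene that had 235 counts in all 24 libraries, against 4139 for NHEJ1.

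DCLRE1C, the nuclease Artemis, fell in Fadu (−0.22) and Hth83 (−0.37). In Cal27 it rose by 0.23 (adjusted p = 0.0456), but it lost that call without Control library 1 (0.24), Control library 2 (0.18), CAP library 1 (0.21), CAP library 2 (0.22) or CAP library 3 (0.24), and adjusted p ran from 0.00648 to 0.544 over the alternatives. With the replicate number as a block the Cal27 value was 0.23 (adjusted p = 0.0551). In Fadu DCLRE1C lost its call with library size alone (−0.12) and with the exon length and GC trend removed (−0.09), XRCC4 in Fadu with the length trend removed (−0.10) and on log2(TPM + 1) (−0.15), LIG4 in Cal27 with the exon length and GC trend removed (0.07), and XRCC5 in Cal27 with library size alone (−0.01) and in A375 on log2(TPM + 1) (0.10). NHEJ1 was lost in A375 (0.23) and Cal27 (0.30) on unfiltered log2(TPM + 1).

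POLQ, FANCA and FANCM were called higher in all 4 lines, and 0 of the 49 genes were called lower in all 4. Of 14240 genes tested in every line, 1.35% were called higher and 1.29% lower in all 4. POLQ encodes the polymerase of theta-mediated end joining, a mutagenic route that uses short homologies. FANCA is a subunit of the Fanconi core complex, and FANCM encodes the translocase that anchors this complex at blocked forks. The RefSeq promoters of the 3 genes are shown because these genes share a direction in every line. Each runs 5′ to 3′ on the gene's strand from 250 bases before to 50 bases after the annotated start, on GRCh38.p14. POLQ lies at chr3:121545939-121546238 (minus strand), FANCA at chr16:89816598-89816897 (minus strand) and FANCM at chr14:45135680-45135979 (plus strand). Capitals mark matches, on either strand, to the cell-cycle element letters TTTGAA or TTCGAA and to CCAAT.
POLQ: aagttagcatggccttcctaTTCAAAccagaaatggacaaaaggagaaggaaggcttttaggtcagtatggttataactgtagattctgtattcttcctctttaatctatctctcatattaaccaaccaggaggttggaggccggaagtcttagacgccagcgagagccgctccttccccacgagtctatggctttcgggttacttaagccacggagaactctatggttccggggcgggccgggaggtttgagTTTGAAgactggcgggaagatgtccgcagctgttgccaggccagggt
FANCA: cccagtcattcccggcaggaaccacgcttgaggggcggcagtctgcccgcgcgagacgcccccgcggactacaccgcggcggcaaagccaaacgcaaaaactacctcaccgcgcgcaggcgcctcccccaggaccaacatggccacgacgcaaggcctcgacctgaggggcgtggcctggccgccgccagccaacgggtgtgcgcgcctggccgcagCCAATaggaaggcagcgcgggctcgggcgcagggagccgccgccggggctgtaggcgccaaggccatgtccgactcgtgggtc
FANCM: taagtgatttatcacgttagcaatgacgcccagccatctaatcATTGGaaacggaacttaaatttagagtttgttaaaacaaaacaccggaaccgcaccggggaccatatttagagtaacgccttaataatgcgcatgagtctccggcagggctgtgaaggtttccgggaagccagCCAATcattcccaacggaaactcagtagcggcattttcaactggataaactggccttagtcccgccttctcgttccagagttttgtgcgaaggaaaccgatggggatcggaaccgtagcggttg

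POLQ held 2 matches to TTTGAA, FANCA 1 to CCAAT and FANCM 2 to CCAAT. Over the 61 RefSeq promoters found for 43 of the 49 genes, 47.5% held CCAAT, against 34.6% of all 34943 promoters of the same length, and 13.1% held TTTGAA or TTCGAA, against 16.4%. The E2F site letters TTTCGCGC, TTTGGCGC or TTTCCCGC, searched on both strands, were in 8.2% of them, those of EXO1, FANCC, FANCD2, XRCC2 and XRCC6, and in 2.72% of all promoters. A match of letters is not evidence of binding.

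POLQ had 83.4, 80.3 and 85.0 CPM in Hth83 CAP libraries and 52.1, 53.5 and 51.7 CPM in Control libraries (log2 fold change 0.66, SE 0.055, adjusted p = 1.98e-11). In Cal27 it had 64.7, 67.7 and 60.8 CPM after CAP and 39.1, 44.0 and 46.2 CPM in Control cells (0.58, SE 0.061, adjusted p = 1.68e-09). In A375 it had 50.9, 54.9 and 54.8 CPM after CAP and 45.1, 45.3 and 43.6 CPM in Control cells (0.26, SE 0.053, adjusted p = 0.000133). The groups were separate in all 3 lines. In Fadu it had 138, 148 and 141 CPM in CAP libraries and 133, 134 and 127 CPM in Control libraries, separate but close (0.11, SE 0.039, adjusted p = 0.013). The Fadu call was lost without Control library 3 (0.09) or CAP library 2 (0.08), and on log2(TPM + 1) those of Fadu (0.12) and A375 (0.14) were lost, with Fadu adjusted p from 9.59e-09 to 0.193 over the alternatives.

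FANCA gave the second largest rise in Fadu, with 52.6, 53.7 and 55.8 CPM after CAP and 37.0, 38.2 and 40.1 CPM in Control cells (0.49, SE 0.057, adjusted p = 2.01e-12). It had 124, 117 and 112 CPM in Hth83 CAP libraries and 94.2, 99.3 and 80.7 CPM in Control libraries (0.36, SE 0.062, adjusted p = 2.15e-05), and 55.5, 52.1 and 54.9 CPM in A375 CAP libraries and 44.8, 41.2 and 40.5 CPM in Control libraries (0.36, SE 0.056, adjusted p = 2.68e-06). In Cal27 it had 52.3, 51.8 and 49.8 CPM after CAP and 46.0, 41.9 and 42.5 CPM in Control cells (0.24, SE 0.058, adjusted p = 0.000895). CAP libraries exceeded Control libraries in every line, and 23.6% of its exon bases are shared with the opposite-strand gene ZNF276. With the length trend removed the Cal27 value was 0.11 (adjusted p = 0.118, range over the alternatives 2.12e-05 to 0.118).

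FANCM had 26.4, 26.4 and 28.3 CPM in A375 CAP libraries and 18.7, 20.3 and 19.9 CPM in Control libraries (0.47, SE 0.072, adjusted p = 2.49e-06). In Hth83 it had 30.5, 28.9 and 31.1 CPM after CAP and 21.7, 23.9 and 21.4 CPM in Control cells (0.43, SE 0.078, adjusted p = 2.33e-05), and in Cal27 21.7, 20.9 and 20.9 CPM after CAP and 15.1, 15.3 and 17.3 CPM in Control cells (0.41, SE 0.083, adjusted p = 0.00012). CAP and Control were separate in these 3 lines. In Fadu they overlapped, at 31.9, 38.4 and 34.6 CPM in CAP libraries and 30.6, 32.2 and 30.5 CPM in Control libraries (0.17, SE 0.069, adjusted p = 0.031). This call was lost without Control library 1 (0.16), Control library 3 (0.16) or CAP library 2 (0.10), by DESeq2 (0.17) and on log2(TPM + 1) (0.16), and adjusted p ran from 6.2e-06 to 0.304. The Cal27 value was 0.18 with the exon length and GC trend removed (adjusted p = 0.0882, range over the alternatives 8.1e-06 to 0.0882).

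Of the 11 Fanconi genes 8 rose and 0 fell in Hth83 (72.7% and 0%, against 25.9% and 24.2% of all genes), and 5 rose and 1 fell in Cal27 (45.5% and 9.09%, against 21.9% and 23.2%). In A375 4 rose and 2 fell (36.4% and 18.2%, against 25.7% and 24.8%), and in Fadu 5 rose and 2 fell (45.5% and 18.2%, against 26.3% and 27%). FANCD2, the protein whose monoubiquitination marks an active pathway, had 31.0, 34.0 and 27.4 CPM in Cal27 CAP libraries and 22.5, 23.9 and 25.3 CPM in Control libraries (0.37, SE 0.078, adjusted p = 0.000217). In Hth83 it had 122, 120 and 119 CPM after CAP and 105, 111 and 100 CPM in Control cells (0.19, SE 0.050, adjusted p = 0.00174). The groups did not overlap in either line.

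FANCD2 was not called in the other lines. A375 had 63.9, 60.7 and 63.7 CPM in CAP libraries and 63.9, 61.1 and 58.4 CPM in Control libraries (0.04, SE 0.050, adjusted p = 0.581). Fadu had 165, 169 and 157 CPM after CAP and 159, 161 and 169 CPM in Control cells (0.01, SE 0.038, adjusted p = 0.839). Both pairs of groups overlapped. FANCI, its partner, rose in Cal27 (0.23, SE 0.045) and Hth83 (0.42, SE 0.048) and was not called in A375 (0.08) or Fadu (0.06). The Cal27 call of FANCI was lost with the length trend (0.11) or the exon length and GC trend removed (0.06).

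UBE2T, the ubiquitin-conjugating enzyme of the pathway, rose in Hth83 (0.66, SE 0.072, adjusted p = 7.63e-09) and Fadu (0.23, SE 0.048, adjusted p = 1.58e-05). In Cal27 it fell by 0.19, a call lost with library size alone (−0.11) and without Control library 2 (−0.15) or CAP library 2 (−0.18), with 0.05 on log2(TPM + 1) and adjusted p from 0.00131 to 0.517. FANCL, the ubiquitin ligase it works with, fell in A375 (−0.14, adjusted p = 0.0478), and that call was lost in 5 of the 6 settings that left out 1 library, all but the one without CAP library 2 (−0.15 without Control library 1, −0.14 without 2, −0.14 without 3, −0.10 without CAP library 1 and −0.16 without 3). It was also lost by DESeq2 (−0.14) and with the exon length and GC trend removed (−0.02). Adjusted p of FANCL in A375 ran from 0.00423 to 0.838.

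Of the other core complex genes, FANCB rose in Cal27 (0.46), A375 (0.50) and Hth83 (0.41) and was not called in Fadu (−0.02). FANCG rose in A375 (0.26), Fadu (0.36) and Hth83 (0.21), the last lost without Control library 3 (0.16) or CAP library 2 (0.16), with adjusted p from 0.00332 to 0.0806, and FANCF fell in Fadu (−0.27) and was −0.19 in A375, where it was not called (adjusted p = 0.0974). FANCE rose in Fadu (0.17) and Hth83 (0.24). The FANCE call was lost in Fadu without Control library 1 (0.16), Control library 3 (0.13), CAP library 1 (0.17) or CAP library 3 (0.16) and in Hth83 without Control library 2 (0.18), Control library 3 (0.23) or CAP library 2 (0.17), with adjusted p of up to 0.543 in Fadu and up to 0.159 in Hth83 and as low as 0.000482 in Fadu and 0.00862 in Hth83. FANCE in Fadu was 0.05 with the exon length and GC trend removed, FANCF in Fadu −0.17 with library size alone, and FANCG in A375 0.17 on log2(TPM + 1), none of them called.

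FANCC was the second largest fall of A375, with 32.3, 31.7 and 28.2 CPM after CAP and 37.1, 32.9 and 36.6 CPM in Control cells. The groups did not overlap (−0.21, SE 0.067, adjusted p = 0.00879), but the call was lost without Control library 1 (−0.18), Control library 3 (−0.19) or CAP library 3 (−0.15), and the value was 0.01 with the length trend removed, with adjusted p from 0.000772 to 0.954. FANCC also fell in Fadu (−0.23, SE 0.062, adjusted p = 0.000705), a call lost with library size alone (−0.13), with the length trend removed (−0.05) and on log2(TPM + 1) (−0.13), over adjusted p from 0.00038 to 0.501.

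Whether a gene changed differently in the 4 lines was tested in 1 model of all 24 libraries. Of the 49 genes 40 passed this test of interaction, against 56.9% of 23642 genes tested. ATM had the smallest p, with a change 1.36 (log2, SE 0.065) higher in Cal27 than in Hth83 (adjusted p of the pair 4.19e-23). PRKDC differed most between Cal27 and Fadu, by 0.88 (SE 0.051), XRCC6 between Hth83 and Cal27, by 0.62 (SE 0.047), H2AX between Hth83 and Fadu, by 1.20 (SE 0.078), and BRCA2 between Cal27 and Fadu, by 1.39 (SE 0.087). Their interaction adjusted p was 1.74e-20 for PRKDC, 1.48e-18 for XRCC6, 2.77e-18 for H2AX and 4.56e-18 for BRCA2. The 9 genes that did not pass were CHEK2, RAD51B, RAD54B, XRCC4, NHEJ1, FANCA, FANCF, FANCL and FANCM, which does not show that their changes were alike.

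Pairs of lines were compared gene by gene, with p-values adjusted over all genes and the 6 pairs. The change in Fadu was lower than that in Hth83 for 27 of the 49 genes and higher for 4, where 35.5% of all genes differed in either direction. Cal27 was higher than Fadu for 22 and lower for 6 (background 37.8%), and A375 was higher than Fadu for 21 and lower for 7 (background 35.7%). Between A375 and Hth83, 6 genes were higher in A375 and 22 in Hth83 (background 28.5%). Cal27 and A375 differed for 15 genes one way and 10 the other, the 15 higher in Cal27 (background 35.3%), and Cal27 and Hth83 for 11 higher in Cal27 and 19 higher in Hth83 (background 34.9%).

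Called directions crossed between lines for 24 of the 49 genes, each higher in at least 1 line and lower in at least 1 other, where 44.5% of the 14240 genes tested in every line did so, a share near that of the 49. Lower in Fadu and higher in at least 1 other line were 17 of the 49 genes, against 19.1% of the 14240 genes. There were 10 genes called higher in Cal27, A375 and Hth83 (4.85% of the 14240), and 4 of those, BRCA1, MDC1, RIF1 and BLM, were called lower in Fadu (2.17%). The mean of the 4 changes was called higher for 32 genes and lower for 4, where 20.6% of all genes were called higher and 18.3% lower. The largest means were those of XRCC2 (0.42, SE 0.028, adjusted p = 8.44e-18) and POLQ (0.40, SE 0.027, adjusted p = 9.94e-18).

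Other genes of break and crosslink repair, 69 on a second list of which 67 were tested, were counted for comparison. In Cal27 21 rose and 19 fell (31.3% and 28.4%, against 21.9% and 23.2% of all genes) and in Fadu 22 rose and 21 fell (32.8% and 31.3%, against 26.3% and 27%), shares near those of all genes. In A375 30 rose and 10 fell (44.8% and 14.9%, against 25.7% and 24.8%), and in Hth83 28 rose and 16 fell (41.8% and 23.9%, against 25.9% and 24.2%). The smallest p-values belonged in A375 and Hth83 to CLSPN, the ATR adaptor claspin (0.96, SE 0.057, and 1.33, SE 0.069), and to PARP1, the break sensor that makes poly(ADP-ribose) (0.39, SE 0.033, and 0.73, SE 0.044). In Fadu they belonged to PAXX, an accessory factor of Ku (0.80, SE 0.048), and USP1, which removes ubiquitin from FANCD2 (−0.57, SE 0.034). In Cal27 they were GEN1, a resolvase of recombination junctions (0.72, SE 0.059), and SMC5, a subunit of the SMC5/6 complex (0.53, SE 0.044).

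Genes of DNA replication and of mitosis were counted in the same fits, in which 21.9% to 26.3% of all genes were called higher and 23.2% to 27% lower. Of 28 genes of the G1/S transition and replication, 27 rose and 1 fell in Hth83 (median log2 fold change 0.94), 26 rose and 1 fell in A375 (0.61), 12 rose and 7 fell in Fadu (0.06) and 8 rose and 7 fell in Cal27 (0.03). In Cal27 the shares of this list, 28.6% higher and 25% lower, were near those of all genes. Of 28 genes of the G2/M transition and mitosis, 23 rose and 0 fell in Hth83 (0.54), 19 rose and 1 fell in Cal27 (0.30), 16 rose and 3 fell in A375 (0.16), and 3 rose and 22 fell in Fadu (−0.36). Of the 49 repair genes, 30 rose and 6 fell in Hth83, 26 rose and 7 fell in Cal27, 24 rose and 4 fell in A375, and 13 rose and 20 fell in Fadu. The part of the cell cycle in the changes of the repair genes was not tested.

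PCNA, the replication clamp, was 1.12 in Hth83, 1.03 in A375, −0.15 in Fadu and −0.15 in Cal27, all called. MKI67, a marker of proliferating cells, was 0.69 in Hth83, 0.28 in A375, −0.56 in Fadu and 0.63 in Cal27, all called. Of 22 target genes of p53, 8 rose and 9 fell in Hth83, 11 rose and 7 fell in A375, 7 rose and 12 fell in Fadu and 4 rose and 10 fell in Cal27, shares of 36.4% and 40.9%, 50% and 31.8%, 31.8% and 54.5%, and 18.2% and 45.5%, beside the shares of all genes given for the replication list. CDKN1A, which encodes the cell-cycle inhibitor p21, rose in Fadu (1.07) and A375 (0.91) and fell in Cal27 (−0.59) and Hth83 (−0.91).

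**Figure D3:**
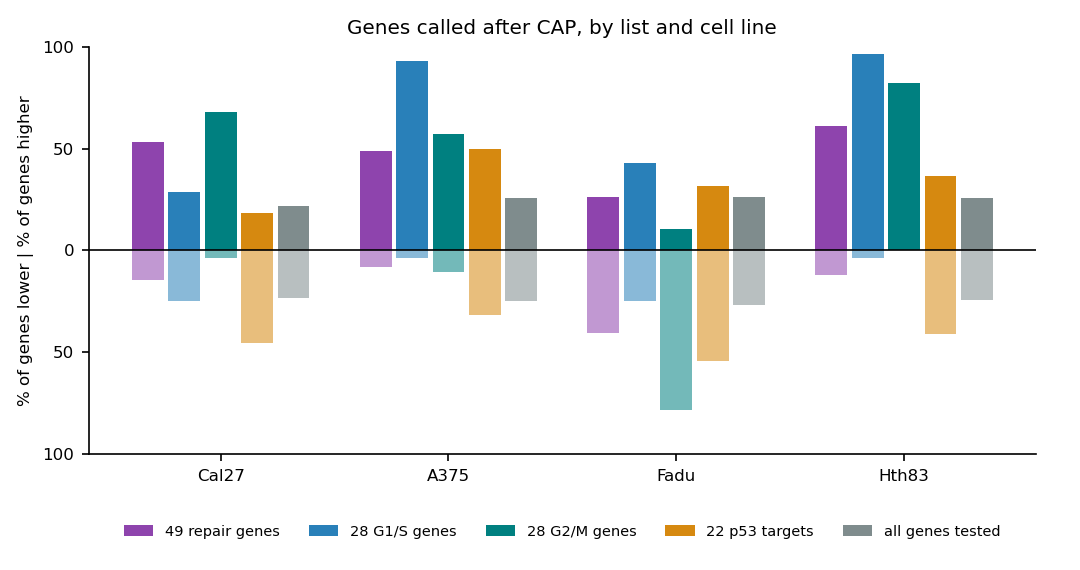
Percent of genes called higher (bars above 0) and lower (pale bars below 0) after CAP in each cell line, for the 49 repair genes, the G1/S, G2/M and p53 target lists and all genes tested. In Fadu 40.8% of the repair genes and 78.6% of the G2/M genes were called lower, and in Hth83 61.2% of the repair genes and 96.4% of the G1/S genes were called higher.

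In Cal27 the change went with the length and base composition of the gene. Over the 49 genes the rank correlation of the log2 fold change with exon length was 0.57 in Cal27, −0.00 in A375, −0.20 in Fadu and −0.05 in Hth83, and that with GC content was −0.44, 0.07, 0.19 and 0.05 in the same order, as descriptions over genes that share libraries. With the span length trend over all genes removed, 20 repair genes rose and 8 fell in Cal27, beside 3047 and 4515 of all 17371 genes. With the exon length and GC trend removed, 19 rose and 6 fell, beside 2664 and 4267. Medians of the repair genes were then 0.11 and 0.07, against 0.20 without removal, and those of all genes −0.04 and −0.04. ATM kept a rise of 0.81 with the span length trend removed and 0.59 with the exon length and GC trend removed.

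**Figure D4:**
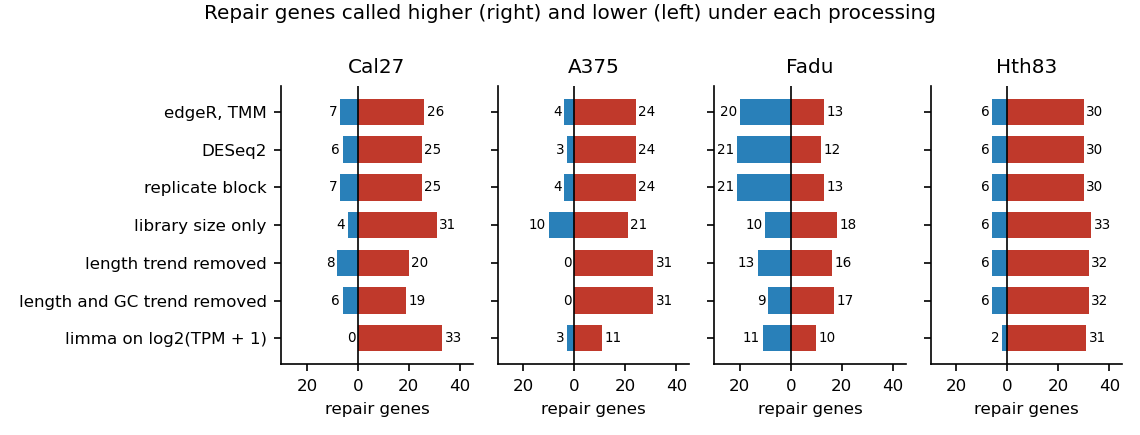
Number of the 49 repair genes called higher (red, to the right of 0) and lower (blue, to the left) in each cell line under 7 ways of processing. On log2(TPM + 1) only 45 of the 49 were tested in Cal27 and in A375, and 47 in Fadu and in Hth83. Hth83 has 30 to 33 rises in each, whereas the falls in Fadu number 20 with TMM scaling and 9 with the exon length and GC trend removed. Over all genes tested in Fadu, not drawn, falls numbered 5169 and 4836 in these settings.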

How the data were processed

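Cells were exposed once and harvested at 24 h, and Trizol RNA went into SMARTER mRNA-Seq libraries read on a HiSeq3000, per the labels' protocols. HISAT2 and GRCh38 are named in the submitters' processing notes. How reads were counted, with which annotation, whether by strand, and which lengths underlie TPM are not stated by any source at hand. The authors deposited, per line, raw counts and TPM of 61533 Ensembl IDs, of which 61369 were named by a symbol table. The deposited TPM were found to follow the genomic span of each gene, introns included, for 41 of the 49 genes to within 1%, so a level per exon length was computed here from the counts with GENCODE 29 exons. All 37 mitochondrial genes had 0 counts. Within each group, libraries varied beyond counting error (chi-square per degree of freedom 2.965 to 8.699), so none was counted as a duplicate.

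Counts were tested in R 4.3.3 with edgeR 4.0.16 (filterByExpr with a minimum count of 10, TMM scaling, robust quasi-likelihood test, Benjamini-Hochberg over all genes tested, threshold 0.05, no fold minimum) within each line and, for differences between lines and the mean change, in a model of the 8 group means of all 24 libraries. Every adjusted p in the text comes from these fits unless another tool is named. Log2 fold changes are CAP over Control. Tested on simulated counts, the method found these shares of 100 genes altered 2-fold and of 100 altered 1.2-fold: 96% and 31% for Cal27 (16990 genes tested, 3.79% of calls false), 98% and 35% for A375 (19919 genes, 3.62% false), 94% and 35% for Fadu (18794 genes, 4.44% false), and 96% and 40% for Hth83 (17310 genes, 4.23% false). limma on log2(TPM + 1) gave 14.5% to 23.3% false calls there. It recovered 0% of the 1.2-fold changes in every line and 46% to 67% of the 2-fold changes. The loss of a call on log2(TPM + 1) therefore cannot decide whether a small change is present. For a change in Cal27 alone the interaction test recovered 72% of 2-fold and 3% of 1.2-fold changes (23428 genes). Each simulation gave every gene the same spread and altered only 200 genes, in both directions. In the data 45.1% to 53.3% of genes were called within a line, so these shares need not hold there.

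The genes, the gene lists, the tests and the promoter letters were chosen with earlier results of these data known, so no count over a list is independent support. Given with every library are the 2 largest called rises and falls of each line, genes called in 1 direction in all 4 lines, the 5 with the smallest interaction p, and ATM, ATR, PRKDC, BRCA1, BRCA2 and FANCD2 in every line. Of other repair genes the 2 with the smallest p of each line are named. Library counts were not pooled, and the SD of a level is that of the 3 libraries of a group. The SE of a log2 fold change is its size divided by the square root of the F statistic of the quasi-likelihood test. It rests on the libraries of both groups and on a spread moderated over all genes. For differences between lines and for the mean change it rests on all 24 libraries. Tried as alternatives were other scalings (RLE, library size only) and filters, DESeq2 1.42.0, dispersion without robust fitting, the joint model, a replicate block, limma 3.58.1 on log2(TPM + 1) and log2(TPM + 0.1), a fit after removing the loess trend with the span length behind TPM, and every fit with 1 library missing. Removal of a trend with exon length and GC content was added after seeing the data. Promoters are those of RefSeq on GRCh38.p14, from which XRCC5, FANCI, PRKDC, WRN, NBN and RAD54B were not analysed here.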

Additional observations from a re-analysis of the deposited data

Results flagged for a closer look

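The change after CAP differed between lines, by the interaction test of edgeR's quasi-likelihood model, for 40 of the 49 genes. For each, the difference (log2, change in the first line minus change in the second) is given for the pair of lines with the smallest p.

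Between Hth83 and Fadu, the first minus the second, it was 1.27 for BARD1, 1.20 for H2AX, 1.0 for RNF168, 0.89 for EXO1, 0.80 for BRCA1, 0.74 for BLM, 0.53 for CHEK1, 0.53 for POLQ, 0.51 for PALB2 and 0.49 for BRIP1. Between Cal27 and Fadu it was 1.39 for BRCA2, 0.91 for RIF1, 0.88 for PRKDC, 0.56 for ATR and 0.31 for MDC1. Fadu had the lower change in all of these.

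Between Hth83 and Cal27 it was 0.84 for RAD54L, 0.84 for UBE2T, 0.62 for RAD51C, 0.62 for XRCC6, 0.50 for RNF8 and 0.36 for XRCC5. Between Cal27 and Hth83, with the higher change in Cal27, it was 1.36 for ATM, 0.68 for WRN, 0.60 for DCLRE1C and 0.58 for TP53BP1. Between Hth83 and A375 it was 0.60 for XRCC2, 0.44 for FANCE, 0.39 for FANCC and 0.36 for FANCI.

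Fadu had the higher change for XRCC3 (0.97) and FANCG (0.45) against Cal27 and for LIG4 (0.59) and RAD52 (0.55) against Hth83. A375 had the higher change for NBN (0.83), FANCB (0.49) and RAD51D (0.35) against Fadu and for RBBP8 (0.52) against Cal27. Cal27 had the higher change against A375 for RAD50 (1.18), MRE11 (0.61) and FANCD2 (0.35).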

How the results depend on the processing

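Counts of called repair genes kept to within 1.5 times of the values above under DESeq2, RLE size factors, no or a stricter filter, no robust dispersion, the joint model and the replicate block in all 4 lines. Over all genes, same-numbered libraries did not deviate together (every correlation under 0.04). Whether equal numbers mark a shared culture or day is not stated by the labels, and these correlations cannot decide it. With the replicate block 25 genes rose and 7 fell in Cal27, 24 and 4 in A375, 13 and 21 in Fadu and 30 and 6 in Hth83, and 40 genes passed the interaction test.

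Library size alone put the median of all genes at 0.08 in Cal27, −0.09 in A375, 0.11 in Fadu and 0.05 in Hth83. For the repair genes it gave 4 falls and a median of 0.28 in Cal27, 10 falls and 0.07 in A375, 10 falls and 0.07 in Fadu, and a median of 0.32 in Hth83. In Fadu the median of the repair genes was then above 0, as was that of all genes. Rises and falls in Fadu became 18 and 10, against 13 and 20, beside 6491 and 4005 of all 19152 genes with this scaling.

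limma on TPM gave in Cal27 0 falls in each of its 3 forms, with medians of 0.37 on log2(TPM + 1), 0.34 unfiltered and 0.43 on log2(TPM + 0.1). The unfiltered form tested all 49 repair genes. The filtered forms tested 45 of them in Cal27 and in A375, and 47 in Fadu and in Hth83. Over all genes there, 1108 of 16920, 843 of 33650 and 1100 of 16920 fell, with medians of 0.20, 0.08 and 0.23. In the same order of forms A375 had 11, 8 and 12 rises with medians of 0.07, 0.04 and 0.07, and 1 fall in the unfiltered form. Of all genes in A375, 2819 of 19455, 2339 of 37577 and 2808 of 19455 rose, with medians of −0.08, −0.03 and −0.09, and 3433 fell unfiltered. Fadu had 11, 9 and 11 falls, with 8 rises unfiltered, and Hth83 had 2, 1 and 2 falls with medians of 0.38, 0.33 and 0.40. Falls over all genes were 3507, 3240 and 3495 in Fadu, with 3478 rises unfiltered. In Hth83 2563, 2205 and 2525 of all genes fell, with medians of 0.06, 0.00 and 0.06. The cause of these differences was not tested.

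With the length trend removed the median was 0.11 in Cal27 and 0.18 in A375, with 0 falls in A375 and 13 in Fadu. All genes had medians of −0.04 in Cal27 and 0.07 in A375, with 3762 falls in A375 and 5098 in Fadu. With the exon length and GC trend removed, chosen after seeing the data, medians were 0.07 in Cal27, 0.20 in A375 and 0.04 in Fadu, with 0 falls in A375 and 9 in Fadu. Medians of all genes were −0.04, 0.06 and 0.01 in the same order, with 3895 falls in A375 and 4836 in Fadu.

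Leaving out 1 library at a time gave 21 to 25 rises, 5 to 8 falls and a median of 0.18 to 0.22 in Cal27, 24 to 26 rises, 1 to 5 falls and 0.12 to 0.19 in A375, 10 to 12 rises, 17 to 21 falls and −0.07 to −0.02 in Fadu, and 28 to 31 rises, 6 to 7 falls and 0.24 to 0.32 in Hth83. In A375 the falls numbered 2 without Control library 2 or 3 and 1 without CAP library 3. Of the called genes, 8 of 33 in Cal27, 3 of 28 in A375, 8 of 33 in Fadu and 2 of 36 in Hth83 lost their call in at least 1 such setting, and 39 to 43 genes passed the interaction test.

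Single genes with a sign opposite to that above, called in at least one of the fits, were as follows. On log2(TPM + 1), unfiltered and on log2(TPM + 0.1), Cal27 gave 0.16, 0.16 and 0.16 for FANCG, 0.10, 0.10 and 0.10 for H2AX, 0.01, 0.01 and 0.02 for RBBP8, 0.05, 0.05 and 0.05 for UBE2T and 0.14, 0.14 and 0.14 for XRCC5, and the filtered forms gave 0.21 and 0.23 for RNF8. With the length trend removed FANCC was 0.01 in A375, and ATR 0.10 and RAD51B 0.25 in Fadu. With the exon length and GC trend removed BRCA2 was 0.14 in A375, BRIP1 −0.03 and H2AX 0.16 in Cal27, and ATM 0.07, ATR 0.18, BLM 0.02 and WRN 0.00 in Fadu. With library size alone ATR was 0.10 and MDC1 0.01 in Fadu.

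The 3 libraries per group limit the calls of small changes, and 10 genes share over 10% of their exon bases with another gene, 4 of them over 50% (RAD50, XRCC3, NHEJ1 and RAD54B). Effects of lower depth were not examined.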
